A study of Mus musculus with 4 samples.

Results

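Genome clusters are stretches of the mouse genome on which the authors found aligned small RNA reads, and 545 regions were listed in extracellular vesicle (EV) libraries without being listed in a cell library. A region entered this set when its EV cluster shared no nucleotide with any cluster of either cell library, and overlapping clusters of the EV libraries were merged. The 545 regions came from 419 of 684 clusters in 4T1 EV and 287 of 465 in 4TO7 EV, and the 4 libraries listed 4197 clusters in all. The regions were chosen by their listing in EVs and absence from the cell lists, both of which follow from measured alignment totals. Their sizes against cells are therefore a description, and no test was made of them.

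4T1 and 4TO7 are mouse mammary carcinoma lines from a common parental tumour, and 4T1 is the line known for growing in distant organs. The groups were 4T1 EV, 4TO7 EV, 4T1 cells and 4TO7 cells, with 1 library in each, so no spread between cultures could be measured. The labels give no further genotype or treatment, and all cells were kept in DMEM with serum depleted of EVs. The RNA was Trizol-extracted, depleted of ribosomal RNA and cut from a gel at miRNA size, so longer RNAs are represented by pieces of that size.

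The libraries held between 7111921 and 16220214 reads, of which between 5171514 and 13505699 aligned to the mm9 genome. Bowtie, the aligner, placed an aligned read at no more than 6 positions, which gave 4.17 to 5.17 alignments per aligned read. Region sizes are given below as alignments in percent of the genome-aligned reads of the library, so copies of a repeated gene share reads and their percentages cannot be added. In the EV lists the lowest cluster total was 1300 for 4T1 (0.0170% of genome-aligned reads) and 1305 for 4TO7 (0.0252%). In the cell lists it was 1300 for 4T1 (0.00963%) and 1304 for 4TO7 (0.0116%). A cluster that is not listed is not thereby at 0. The lowest listed totals are used below as the limits of the lists, although the rule by which clusters were listed is not given. Intervals are exact 95% binomial intervals and cover counting error alone, because each group had 1 library. They treat alignments as independent counts, and PCR copies could not be told from separate molecules. They may therefore be too narrow even for counting error. Of 6 miRNAs that mark mammary epithelial cells (miR-200a, miR-200b, miR-200c, miR-141, miR-429 and miR-205), summed reads were 384 in 4T1 EV and 3922 in 4T1 cells, but 5 in 4TO7 EV and 42 in 4TO7 cells. These sums are not scaled to depth. The miRNA alignments were 57962 in 4T1 EV, 603186 in 4T1 cells, 51697 in 4TO7 EV and 177647 in 4TO7 cells. In 4TO7 cells miR-205 gave 41 of the 42 reads and miR-200b 1, while miR-200a, miR-200c, miR-141 and miR-429 were at 0. In both 4T1 libraries miR-205 was at 0, so it ran opposite to the other markers. The part of this line difference in the EV results was not tested.

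EVs are membrane-bound particles that cells release, and they carry RNA that includes whole small RNAs and fragments of longer ones. Small nuclear RNAs (snRNAs) are the RNA parts of the spliceosome, which removes introns from pre-mRNA. U2 snRNA base-pairs with the intron's branch point through a sequence in its 5′ portion, and a uridine-rich site further along binds the ring of Sm proteins. The mouse genome holds many copies of U2, some of them genes and many of them pseudogenes.

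The largest EV-only regions were those labelled U2 snRNA or snRNA. The authors had labelled only the 15 largest clusters of 4T1 EV and none of 4TO7 EV. All 4 EV-only clusters labelled U2 snRNA and all 3 labelled snRNA are described here, and the other 538 regions carried no label and are given by position. U2 is shown first, as annotated in GENCODE vM21, because the EV and the cell clusters covered different segments of the EV-only copies. Capitals mark positions 91 to 165, counted from the 5′ end, which the 4T1 EV cluster covered at the copy for which the authors deposited a gene interval (chr11:101466164-101466354, mm9, forward strand, 191 nt).
Gm23444: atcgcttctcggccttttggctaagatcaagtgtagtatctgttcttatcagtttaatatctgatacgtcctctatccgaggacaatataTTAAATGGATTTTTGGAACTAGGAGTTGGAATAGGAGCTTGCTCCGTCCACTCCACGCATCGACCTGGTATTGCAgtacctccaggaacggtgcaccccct
Rnu2-10: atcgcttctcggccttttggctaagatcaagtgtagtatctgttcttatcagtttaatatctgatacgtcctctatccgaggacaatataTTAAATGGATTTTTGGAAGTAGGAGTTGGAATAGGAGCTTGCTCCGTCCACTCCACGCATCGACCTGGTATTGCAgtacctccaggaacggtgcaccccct

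Both annotated genes are 191 nt long, lie on chromosome 11 and differ by C109G, with the Gm23444 base given first. The cell cluster at the same copy, chr11:101466190-101466215, covered positions 27 to 51 (TCAAGTGTAGTATCTGTTCTTATCA). That segment holds GTAGTA, the branch-point pairing sequence, at positions 33 to 38. The capitals hold ATTTTTGG, the uridine-rich site, at positions 99 to 106. Searched on the transcript strand alone, GTAGTA was present in 3.69% and ATTTTTGG in 1.81% of 1383 annotated mouse snRNA transcripts, and a match describes letters only. The files do not say whether starts are counted from 0 or 1, so the positions may be off by 1 nt. The interval copy itself was outside the EV-only set, since both cell libraries also listed a cluster at the start of its EV cluster (chr11:101466254-101466279). That cluster held 1462 alignments in 4T1 cells and 1507 in 4TO7 cells, against 1425 and 1454 at positions 27 to 51. The 4 forward EV-only copies had the same spacing to the 5′ cell cluster, and the 3 reverse ones had another spacing.

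On the forward strand, 4 labelled regions were EV-only: chr11:83085090-83085165 (U2 snRNA) and chr1:72283610-72283685, chr1:72290877-72290952 and chr1:72301672-72301747 (each snRNA). Each held 23.0% of the genome-aligned reads in 4T1 EV (1754603 to 1754697 alignments) and 12.1% in 4TO7 EV (624935 to 625032). The EV clusters were 75 nt wide in 4T1 EV and 50 nt in 4TO7 EV. At all 4 copies both cell libraries listed a cluster of 25 nt that started 64 nt nearer the 5′ end, which left a gap of 39 nt. Those cell clusters held 1349 to 1418 alignments in 4T1 cells (0.00999% to 0.0105%) and 1479 to 1497 in 4TO7 cells (0.0131% to 0.0133%). The cells thus listed these copies too, at another segment and close to their lowest listed total.

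On the reverse strand, 3 labelled regions of 50 nt were EV-only: chr8:53422336-53422386, chrX:13892594-13892644 and chr11:101507121-101507171, all labelled U2 snRNA. Each held 33.8% of the genome-aligned reads in 4T1 EV (2579049 to 2579941 alignments) and 20.0% to 20.1% in 4TO7 EV (1035316 to 1037617). Both cell libraries listed a 50-nt cluster whose 5′ edge lay 66 nt further along the read strand, with a gap of 16 nt. It held 4537 to 4542 alignments in 4T1 cells (0.0336%) and 3243 to 3248 in 4TO7 cells (0.0288%). For the chromosome 8 region the authors gave the gene identifier of Gm23444, which GENCODE vM21 places on chromosome 11, so the label and the position differ and the copy is named by position only.

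The remaining 4 clusters labelled U2 snRNA in 4T1 EV were not EV-only. They lay on the forward strand and reached 30.0% in 4T1 EV, against 19.3% in 4TO7 EV. Their cell clusters stood at the same 64-nt offset (0.0101% to 0.0106% in 4T1 cells, 0.0128% to 0.0133% in 4TO7 cells) and also at the start of the EV cluster. The overlapping cell clusters had 1458 to 1465 alignments in 4T1 cells and 1503 to 1507 in 4TO7 cells, against lowest listed totals of 1300 and 1304. The clusters labelled Brms1l, Rdx, Rab23 and B1 repeat also overlapped cell clusters. Of the 8 clusters labelled U2 snRNA, 4 were therefore EV-only and 4 were not, and the sets differed in whether a cell cluster at the EV segment was listed.

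**Figure D1:**
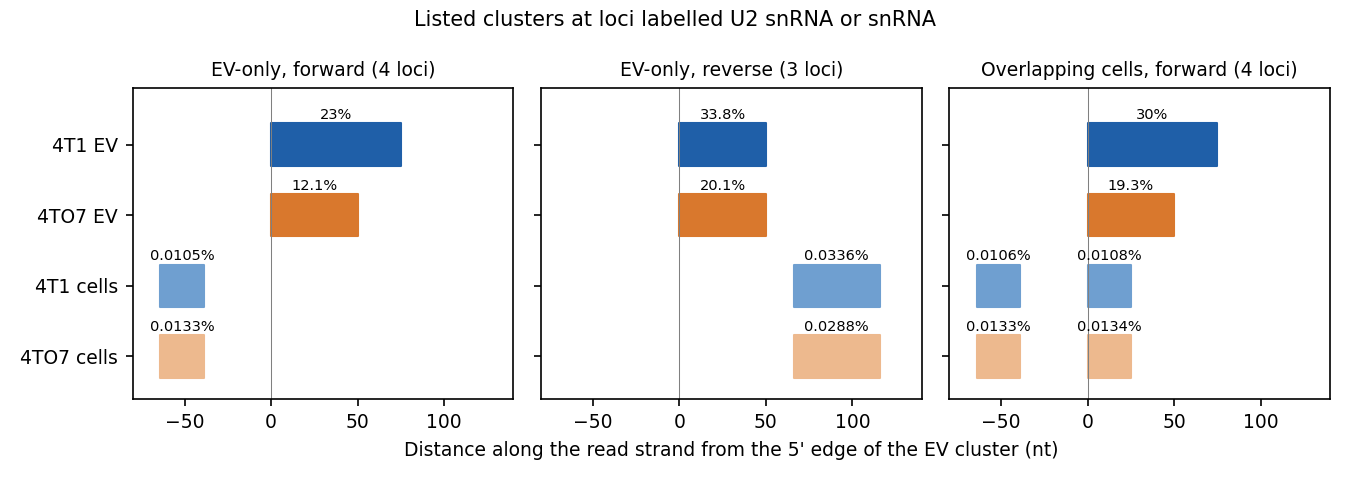
Listed clusters at the 11 loci labelled U2 snRNA or snRNA, by distance in nt along the read strand from the 5′ edge of the EV cluster, with 1 row per library and the highest percent of genome-aligned reads printed on each bar. The EV clusters start at 0, the cell clusters of the EV-only loci start at -64 nt (forward) or 66 nt (reverse), and the 4 loci on the right also have a cell cluster at 0.

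The 7 labelled regions made up most of the alignments of the set. They held 37.4% of all reported alignments in 4T1 EV and 23.2% in 4TO7 EV, which was 82.3% and 67.2% of the alignments in EV-only regions. The other 538 regions held 8.02% in 4T1 EV, where 407 were listed, and 11.3% in 4TO7 EV, where 271 were listed. Together the 545 regions held 45.4% and 34.5% of reported alignments. Among the 538, the median region held 0.0376% of genome-aligned reads in 4T1 EV, against 0.0766% in 4TO7 EV.

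**Figure D2:**
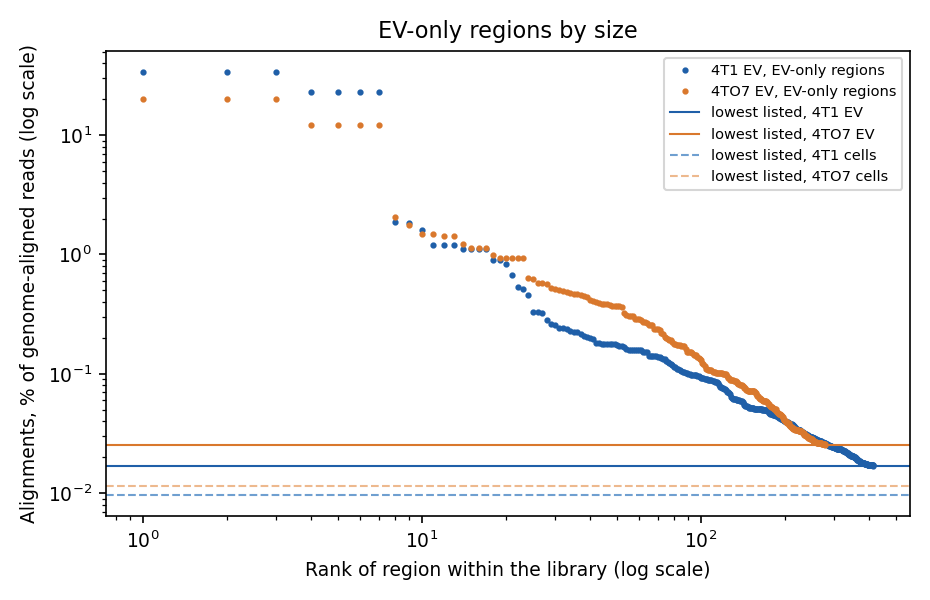
Alignments per EV-only region in percent of genome-aligned reads (log axis) against the rank of the region within its library (log axis), with lines at the lowest listed total of each of the 4 libraries. The 7 labelled regions stand at 12.1% to 33.8%, and no other region exceeds 1.86% in 4T1 EV or 2.05% in 4TO7 EV.

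Just below the labelled regions in 4T1 EV came unlabelled ones that were also above 1% in 4TO7 EV. In 4TO7 EV the next largest were instead chr13:23610009-23610034 (2.05%) and chr13:22011080-22011105 (1.75%), which 4T1 EV did not list, and chr3:96132424-96132450 (1.47%, against 0.179% in 4T1 EV). The region chr15:82980139-82980189 (forward) held 1.86% (interval 1.85% to 1.87%) in 4T1 EV and 1.47% (1.46% to 1.48%) in 4TO7 EV. The region chr5:7177767-7177817 (reverse) had 1.84% in 4T1 EV against 1.43% in 4TO7 EV. The region chr1:72272904-72272954 (forward) held 1.59% and 1.13%, and its cell clusters showed the 64-nt offset of the labelled forward copies. At that region the cell cluster was 50 nt wide with 2883 alignments in 4T1 cells and 25 nt wide with 1410 in 4TO7 cells. A smaller unlabelled region, chr12:60141412-60141463, held 0.0916% and 0.0879% and had the same offset in both cell libraries. In all, 6 regions, 4 labelled and 2 unlabelled, stood in this arrangement.

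Seen over the whole set, 19 regions had a cell cluster within 100 nt, of which 7 were the labelled ones. A cluster of both cell libraries lay that near for 15 of the 19. Without these 19, the remaining 526 regions held 7.53% of reported alignments in 4T1 EV and 10.7% in 4TO7 EV. Most regions lay far from any cell cluster, with a median distance of 386477 nt, a maximum of 6549330 nt, and 482 of 545 (88.4%) more than 10000 nt away. The members nearest to the rule's limit were chr11:108873139-108873164 and chr6:122573563-122573613, which touched a cell cluster without sharing a nucleotide, and chr9:40612139-40612165, 13 nt away. They held 0.194%, no listed cluster and 0.0343% in 4T1 EV, and 0.192%, 0.494% and 0.0264% in 4TO7 EV. Just outside the rule were chr17:47985817-47985842, which shared 1 nt with a cell cluster and held 0.0172% in 4T1 EV, and chr2:90235319-90235344, which shared 5 nt (0.0488% in 4T1 EV, 0.0289% in 4TO7 EV).

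The limits of the lists bear on how far the regions stand apart from cells. In 4T1 EV, 361 of 414 listed regions were more than 2 times the lowest share listed in 4T1 cells, 96 were more than 10 times and 17 more than 100 times. In 4TO7 EV, 103 of 278 listed regions were more than 10 times the lowest share listed in 4TO7 cells and 14 more than 100 times. A count at 2 times says nothing for 4TO7 EV, because its own lowest listed share, 0.0252%, is already more than 2 times that of its cells. Such a count says little for 4T1 EV too, since its lowest listed share was 0.0170% against 0.00963% in 4T1 cells. EV regions that overlapped a cell cluster were more often large. In 4T1 EV, 90 of 414 EV-only and 99 of 259 overlapping regions were above 0.1% of genome-aligned reads. In 4TO7 EV it was 119 of 278 and 111 of 174. The counts above thus describe size in EVs and are not particular to EV-only regions.

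Most EV-only regions were narrow and lay on 1 strand. The authors' clusters were built in steps of 25 nt, and 410 of the 545 regions (75.2%) were 25 nt wide, against 44.4% of the 279 EV regions that overlapped a cell cluster. At least 50 nt was reached by 87 regions (16.0%), against 41.2% of the overlapping ones. The widest EV-only regions measured 100 nt and the widest overlapping region 325 nt. A wider region can meet a cell cluster more easily, so width is not independent of the rule. Among the 147 EV-only regions listed in both EV libraries, 41.5% were 25 nt wide. The share was 96.3% among the 267 of 4T1 EV alone and 70.2% among the 131 of 4TO7 EV alone. Width is thus mixed with sharing, as 27.0% of EV-only and 55.2% of overlapping regions were listed in both. Merging clusters of both libraries can also widen a region. Of the 545, 269 were forward, 250 reverse and 26 (4.77%) had less than 99% of their alignments on 1 strand, against 22.6% mixed among the overlapping regions. The regions fell on 20 chromosomes with 15 to 46 on each, and none on the mitochondrial genome or Y.

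None of the 9 regions of 100 nt carried a label, and 7 of them lay between 0.925% and 1.20% in both EV libraries. The pair chr11:87236440-87236540 and chr12:55811366-55811466 held 1.20% each in 4T1 EV and 1.14% each in 4TO7 EV. The region chr11:87240289-87240389 and 3 regions on chromosomes 12 and 19 held 1.11% each in 4T1 EV and 0.925% to 0.930% in 4TO7 EV. The smallest of the widest regions listed in both EV libraries was chr11:68886971-68887071, at 0.103% and 0.153%. Among 39 regions with at least 10000 alignments in both EV libraries, 19 fell into 7 groups whose totals agreed within 1% in both, the 7 labelled regions forming 2 of these groups. This grouping was chosen after the values were seen, and since a read can be reported at 6 positions, the members of a group may be counting the same reads.

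Sharing between the EV libraries was lower for EV-only regions than for the rest. Of the 545, 147 were listed in both EV libraries, 267 in 4T1 EV alone and 131 in 4TO7 EV alone, and 82 of the 147 had the same start and end in both. As a share of each list, 36.3% of the 419 EV-only clusters of 4T1 EV and 53.7% of the 287 of 4TO7 EV overlapped a cluster of the other EV library. For EV clusters that overlapped a cell cluster the shares were 60.0% of 265 and 88.8% of 178. Regions are not replicates, so no test was run on this difference. The median share of EV-only regions was 0.0383% in 4T1 EV and 0.0805% in 4TO7 EV, against 0.0730% and 0.135% for those that overlapped cells, so more of them lay near the listing limit.

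The rule did not use the ratio of 4T1 EV to 4TO7 EV, but the ratio is not free of selection. Only regions listed in both EV libraries were compared, and listing follows from the same totals. The 267 regions of 4T1 EV alone and the 131 of 4TO7 EV alone had no ratio. A region was called when the exact interval of its ratio of shares lay wholly beyond 2-fold, which compares 2 libraries and not 2 conditions. Of the 147 regions, 19 (12.9%) were higher in 4T1 EV, where 13.6% of all 301 EV regions listed in both were, and 11 (7.48%) were lower, where 9.97% were. Either call was made for 23.6% of the 301, and no call for 79.6% of the 147 and 76.4% of the 301. The 301 include the 147 EV-only regions. Of the 154 regions that overlapped a cell cluster, 14.3% were higher and 12.3% lower. The shares of called EV-only regions were thus near the background of all 301. The share called lower was below that of the 154, and no test was made of this. The median ratio was 1.03, a log2 ratio of 0.04, as over all 301 regions, and single ratios ran from 0.0325 to 5.66.

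These counts depended on the scaling, and 63.3% of called regions were higher with genome-aligned reads as denominator. With all reads as denominator this was 68.6%, as 24 regions (16.3% of the 147, background 16.6%) were higher and 11 (7.48%, background 9.30%) lower. With median-of-ratios scaling it was 52.9%, as 18 (12.2%, background 12.6%) were higher and 16 (10.9%, background 11.6%) lower. With alignments in listed clusters it was 16.3%, as 8 (5.44%, background 6.98%) were higher and 41 (27.9%, background 31.6%) lower. The shares of called regions were near the background under each of these scalings. All reads moved every log2 ratio by 0.11 and listed clusters by -0.44. The 3 reverse labelled regions had a ratio of 1.69 and were not called under any of these 4 scalings. The 4 forward ones had a ratio of 1.90 and were not called, but with all reads as denominator it was 2.05 and all 4 were called higher. Over these 4 scalings the labelled regions ranged from 1.24 to 2.05. Counted per covered nt, the forward ones had a ratio of 1.27, and the reverse ones stayed at 1.69. The forward clusters were 75 nt wide in 4T1 EV and 50 nt in 4TO7 EV. At a limit of 1.5-fold without this correction, all 4 forward and all 3 reverse ones were called higher.

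**Figure D3:**
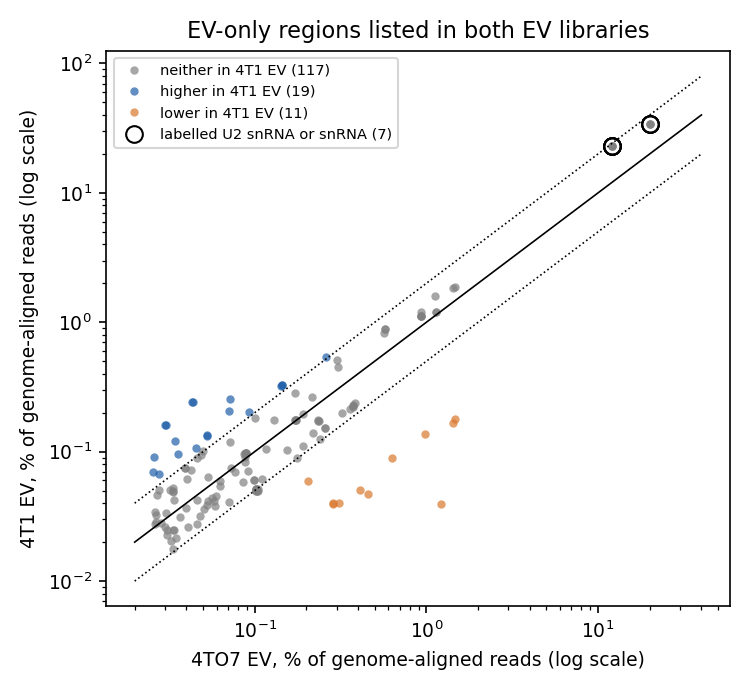
Share of genome-aligned reads in 4T1 EV against 4TO7 EV for the 147 EV-only regions listed in both (log axes), with a solid line at equality, dotted lines at 2-fold, and circles around the 7 labelled regions. The 19 regions higher in 4T1 EV have ratios up to 5.66, and the 11 lower ones reach down to 0.0325.

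The region with the highest ratio was chr8:91532666-91532691, with 0.244% of genome-aligned reads in 4T1 EV against 0.0431% in 4TO7 EV, a ratio of 5.66 (interval 5.42 to 5.92). Nearly the same values were found at chr19:29099057-29099085, with 0.244% and 0.0440% and a ratio of 5.54 (5.30 to 5.78). The next were chr3:96254488-96254538, at 0.160% and 0.0302% (ratio 5.29), and chr3:96132467-96132517, at 0.160% and 0.0304% (ratio 5.26). The fifth, chr11:95945053-95945079, held 0.255% and 0.0716% (ratio 3.57, 3.44 to 3.69). All 5 were single-stranded regions of 25 to 50 nt. At both chromosome 3 regions the cluster was 50 nt wide in 4T1 EV and 25 nt in 4TO7 EV, so those ratios compare unequal widths.

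The lowest ratio belonged to chr13:21259995-21260020 on the reverse strand, with 3009 alignments (0.0395%) in 4T1 EV against 62749 (1.21%) in 4TO7 EV, a ratio of 0.0325 (0.0313 to 0.0337). The region chr3:32029818-32029843 held 0.0467% and 0.455%, a ratio of 0.103. The region chr11:54117596-54117621 held 0.168% and 1.42%, a ratio of 0.118. The region chr3:96132424-96132450 held 0.179% and 1.47%, a ratio of 0.121 (0.119 to 0.123). At chr3:96292728-96292754 the shares were 0.0504% and 0.411%, a ratio of 0.122, or 0.488 on the forward strand alone. Chromosome 3 between 96132424 and 96292828 thus held members at both ends of the range.

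Neighbouring EV-only regions differed in opposite directions between the EV libraries in the pairs that could be compared. Within 100 nt of each other lay 14 pairs, and in 6 pairs both regions were listed in both EV libraries. In all 6 the region nearer the 5′ end had a ratio below 1 (0.121 to 0.506). The one nearer the 3′ end had a ratio above 1 (1.49 to 5.29). Both held under every scaling of library totals that was tried. In 5 of the 6 the starts were 43 nt apart. At chr3:96132424-96132450 and chr3:96132467-96132517 the 5′ region was called lower (ratio 0.121) and the 3′ region higher (ratio 5.26). The 3′ region held 0.895 times as many alignments as the 5′ region in 4T1 EV and 0.0206 times in 4TO7 EV. Its cluster was 50 nt wide in 4T1 EV but 25 nt in 4TO7 EV.

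The other 5 pairs had ratios in the same order, with 1 region called in 2 pairs and none in the other 3. At chr3:96254445-96254471 and chr3:96254488-96254538 the ratios were 0.481 and 5.29, the latter called and with the same unequal widths of 50 nt and 25 nt. At chr3:96292728-96292754 and chr3:96292771-96292828 they were 0.122, called, and 1.56. That 5′ region had reads on both strands, and on the forward strand alone, an alternative added after the values were seen, its ratio was 0.488 (0.468 to 0.509) and was not called. At chr3:96178020-96178046 and chr3:96178063-96178120 they were 0.506 and 1.56, with neither called. The pair chr1:172958172-172958198 and chr1:172958215-172958265 had 0.486 and 1.69, and the pair chr13:35754063-35754088 and chr13:35754100-35754150 had 0.490 and 1.49, with no region called in either. At chr1:172958215-172958265 the widths differed the other way, 25 nt in 4T1 EV and 50 nt in 4TO7 EV. In 4T1 EV the 5′ region of 5 of these pairs held 3817 to 3919 alignments, so the pairs resemble each other in count and may share reads. Pairs were looked for after the values were seen, and they are not 6 independent loci.

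**Figure D4:**
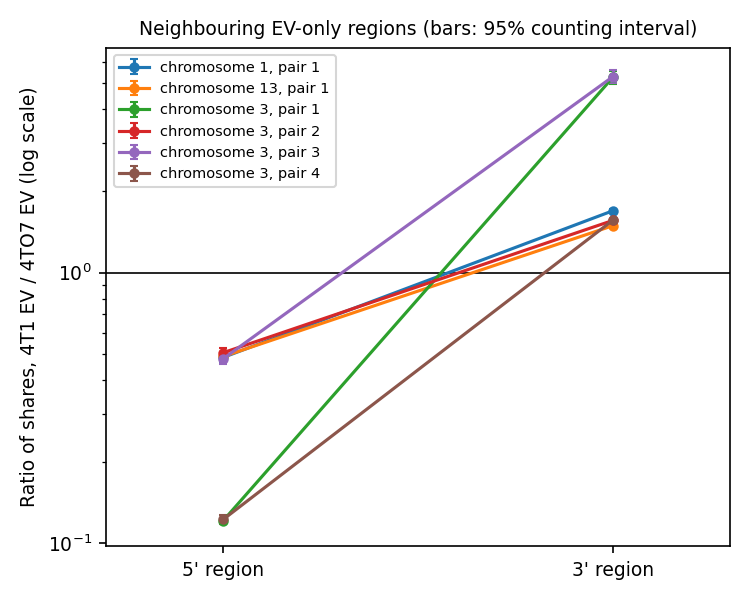
Ratio of shares, 4T1 EV over 4TO7 EV (log axis), for the 5′ and the 3′ region of the 6 pairs of neighbouring EV-only regions, with bars for the 95% counting interval. The 5′ regions lie at 0.121 to 0.506 and the 3′ regions at 1.49 to 5.29, on opposite sides of 1.

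Regions listed in 1 EV library alone were mostly small. The 267 of 4T1 EV had a median of 0.0269% of genome-aligned reads and 257 of them were 25 nt wide. The largest, chr8:124176057-124176082 on the reverse strand, held 51027 alignments, or 0.669%. Of the 267, 146 exceeded the lowest share that 4TO7 EV listed, and 1 exceeded it by more than 10 times. For the other 121 an equal share would lie below the lowest one listed in 4TO7 EV.

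The 131 regions of 4TO7 EV alone had a median of 0.0697%, and 31 exceeded the lowest share listed in 4T1 EV by more than 10 times. That all 131 exceeded it was fixed by the listing limits, since the lowest share of 4TO7 EV lies above that of 4T1 EV. The largest were chr13:23610009-23610034 with 105846 alignments (2.05%, 2.03% to 2.06%) and chr13:22011080-22011105 with 90592 (1.75%, 1.74% to 1.76%), both on the forward strand. The nearest cell clusters were 864 nt and 107310 nt away. Equal shares would lie above the lowest one listed in 4T1 EV, but no fold is given because an unlisted cluster has no value.

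Among the 4TO7 EV regions, 38 of 131 (29.0%) stood in 3 arrays of at least 10 regions with no more than 10000 nt between neighbours. The arrays were found after the values were seen. They spanned chr4:46588537-46597135 (12 regions, forward), chr6:68192900-68202026 (14 regions, forward) and chr12:94121258-94129856 (12 regions, reverse). No cluster of 4T1 EV, 4T1 cells or 4TO7 cells was listed inside any of the 3 spans. Summed alignments equalled 1.22% of the number of genome-aligned reads on chromosome 4, 1.64% on chromosome 6 and 1.17% on chromosome 12. A read can be counted at up to 6 positions, so these sums are not shares of reads. Single regions held 0.0262% to 0.288%, with a median of 0.0817%, and all were on the strand of their array.

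The arrays on chromosomes 4 and 6 repeated each other's spacing. There, 11 of the 12 starts of the chromosome 4 array recurred at the same distance from the array's start. At 3 of these 11 the totals were equal, with 3047, 2423 and 5148 alignments on each chromosome. At the others the totals differed, for example 14120 and 13761, or 4130 and 8303. The chromosome 12 array, read on its own strand, matched 6 positions of chromosome 4 and 7 of chromosome 6 within 25 nt, after a shift of 503 nt between the array starts. At exact spacing it matched 2 positions of either, at another shift, and none of its totals at matched positions was equal to theirs. The spans on chromosomes 4 and 12 were both 8598 nt long. The authors gave no label to these regions, and the arrays on chromosomes 4 and 6 may share reads where totals and spacing were equal.

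**Figure D5:**
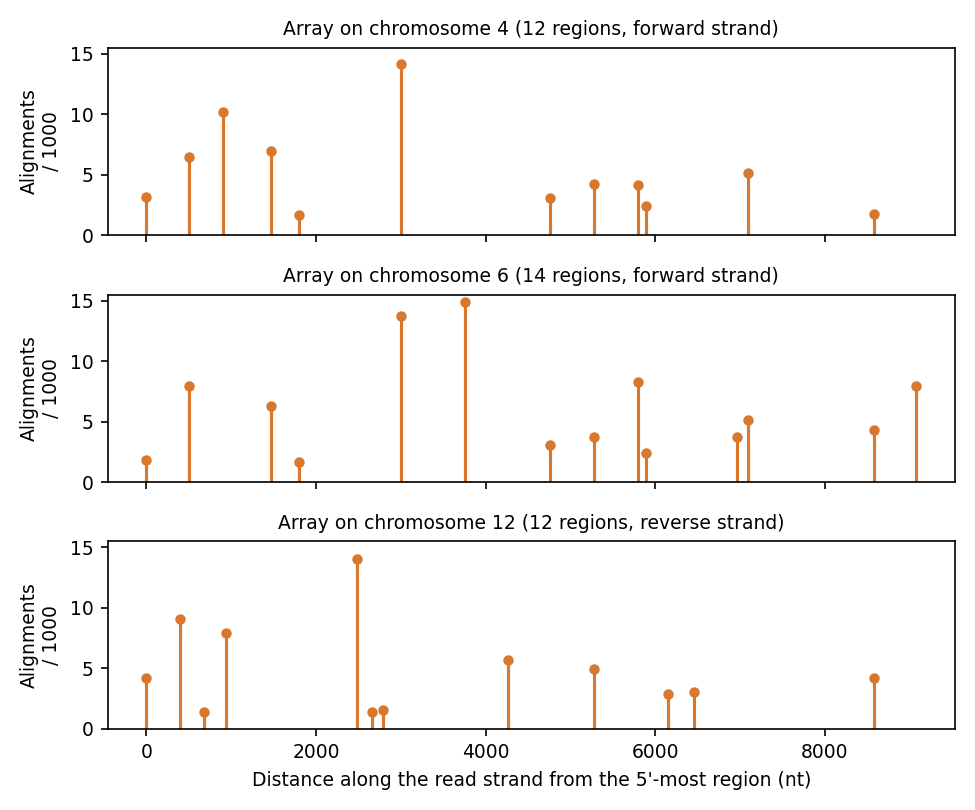
Alignments in 4TO7 EV for each region of the 3 arrays against its distance along the read strand from the 5′-most region (nt). The arrays on chromosomes 4 and 6 share 11 positions, and the tallest region of each holds 14120, 14874 and 13999 alignments on chromosomes 4, 6 and 12.

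Strand use differed between the EV libraries at some of the 26 regions with reads on both strands. Of these, 7 were listed in both EV libraries, 16 in 4T1 EV alone and 3 in 4TO7 EV alone. At the largest, chr11:54117596-54117621, all 12795 alignments of 4T1 EV were forward, whereas 4TO7 EV had 47418 forward and 26166 reverse. At chr3:88715211-88715238, 4T1 EV had 6782 forward alignments only and 4TO7 EV had 2380 forward and 30177 reverse. At chr1:173433222-173433272, 4T1 EV had 22578 forward and 18198 reverse and 4TO7 EV had 13376 reverse only. There the cluster was 50 nt wide in 4T1 EV and 25 nt in 4TO7 EV, so the strands were not compared over the same stretch. At chr3:96292728-96292754 the low ratio included 15942 reverse alignments found in 4TO7 EV alone, beside forward alignments of 3843 in 4T1 EV and 5337 in 4TO7 EV. Of the 7 regions listed in both, 5 used 1 strand in 4T1 EV and both strands in 4TO7 EV, and 1 showed the reverse. The 7 were picked by their pooled strand mix, and a read can be reported at up to 6 positions. The same count was not made over the 154 overlapping regions listed in both, so it is not shown to be particular to EV-only regions.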

How the data were processed

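The authors deposited, for each of the 4 libraries, a table of genome clusters with counts of alignments in total and per strand, an alignment log and a table of miRNA counts. Reads had been handled with cutadapt, Bowtie and bedtools on the mm9 build, per the submitters' processing notes. Per the file headers of the logs, Bowtie allowed 1 mismatch and up to 6 positions per read. How clusters were formed is not given in the sources used here, and all 4197 widths were multiples of 25 nt. The counts were used as deposited. Regions were built with Python 3.11.15, numpy 2.4.6, pandas 2.3.3 and scipy 1.17.1, and figures with matplotlib 3.10.9. Ratios of shares of genome-aligned reads had exact conditional binomial (Clopper-Pearson) 95% intervals, and no p-value was computed. Simulated counts were used only to check the 2-fold call, not the coverage of the intervals. miRNA markers were summed over sense reads of at least 18 nt. The named regions were the 10 largest per EV library, the 5 highest and 5 lowest called ratios, the 2 largest per label class, the 3 nearest to and the 3 least overlapping with a cell cluster, the 3 widest and the 3 largest per strand. Further regions were named for pairs, arrays and shared offsets after their values were seen. The members and lists were chosen with earlier results of these data known. Sequences came from GENCODE vM21 by gene name or identifier. No coordinate was converted between builds.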

Additional observations from a re-analysis of the deposited data

How the results depend on the processing

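The count of 545 EV-only regions fell to 302 when only EV clusters with at least 2 times the lowest listed total were kept, and ranged from 526 to 601 under the other definitions of overlap, strand, merging and cell list. The EV-only share of reported alignments, 45.4% in 4T1 EV and 34.5% in 4TO7 EV, was 7.53% and 10.7% without regions within 100 nt of a cell cluster, and 8.02% and 11.3% without the labelled regions. These 2 alternatives, the one counting touching clusters as overlapping (543 regions) and the one leaving out the arrays (147 shared regions, as before) were chosen after seeing the data. With alignments in listed clusters as denominator, 8 of 147 regions (5.44%, against 6.98% of all 301) were higher and 41 (27.9%, against 31.6%) lower in 4T1 EV, with a median log2 ratio of -0.40; the cause was not tested. At a limit of 1.5-fold, 40 (27.2%, against 26.6%) were higher and 39 (26.5%, against 30.6%) lower, since a lower limit admits more regions. Counted per covered nt, 20 (13.6%, against 13.0%) were higher and 13 (8.84%, against 10.3%) lower. These included 18 of the 19 regions called higher and all 11 called lower in the main comparison. The share of regions 25 nt wide, 75.2%, was 82.3% with each library's clusters counted separately and 62.3% with the stricter EV totals. The ratio of chr3:96292728-96292754, 0.122, was 0.488 and no longer called on the forward strand alone, also chosen after seeing the data. The number of regions listed in both EV libraries, 147, fell to 102 when only EV clusters with at least 2 times the lowest listed total were kept. This still lay within the limits set for the alternatives, as did 27 values in all, so those limits allowed sizeable changes. No paired analysis was possible because each group has 1 library, and for the same reason no replicate could be left out. The lowest listed totals limit every statement on regions that are not listed.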
